A study of Mus musculus with 13 samples.

Results

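The genes described here encode the proteins of the cytosolic ribosome of the mouse. The members were set by a rule on name and annotation, though the family was picked with earlier results of these data known. The rule took every protein-coding gene whose symbol is that of a large-subunit (Rpl) or small-subunit (Rps) protein. It also took the stalk proteins Rplp0, Rplp1 and Rplp2, and Rpsa, and left out the Rps6k kinases. Of the 49315 gene identifiers in the deposited tables, 83 met this rule, 48 for the large subunit, 32 for the small subunit and 3 for the stalk. A further 6 identifiers had a fitting symbol but were not annotated as protein-coding and were left out.

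The values come from bulk RNA sequencing of whole tumour-draining lymph nodes (tdLN) and of whole B16F10 tumours, B16F10 being a mouse melanoma line. All animals were female and were given 5 doses of tamoxifen at 0.1 mg per g of body weight when 6 to 8 weeks old. After a washout of 9 days, 200000 tumour cells in matrigel were placed in the skin of the left flank, at an age given as 6 to 11 weeks. The Foxp3ΔJag1 mice were Foxp3eGFP-Cre-ERT2 Jag1 fl/fl, so that tamoxifen-activated Cre was made from the Foxp3 locus, the lineage gene of regulatory T cells, and acted on the gene of the Notch ligand Jagged-1. The Foxp3Ctrl mice received the same tamoxifen and the same tumour cells and are fl/wt in the protocol but WT in a genotype label, which leaves their exact genotype unsettled. The libraries used were 3 Foxp3Ctrl nodes, 3 Foxp3ΔJag1 nodes and 3 Foxp3Ctrl tumours, and by their library names the 3 control nodes and the 3 control tumours came from the same 3 mice. The Foxp3ΔJag1 tumours were not analysed here. Total counts per library ranged from 33157236 to 44540888 in nodes and from 32117478 to 40968494 in tumours.

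The cytosolic ribosome joins a small subunit, which reads the messenger RNA, to a large subunit, which forms the peptide bond, and its proteins are needed in nearly equal numbers. Their messages are among the most abundant in most cells, and many begin with a C followed by a run of C and T letters, the 5′ terminal oligopyrimidine (TOP) tract, through which mTORC1 signalling controls their translation. Several of the proteins have paralogues with restricted expression, and the family has left many processed pseudogenes, reverse-transcribed copies of the messages, in the mouse genome.

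In Foxp3Ctrl nodes the 83 genes together took 7.45%, 7.23% and 7.33% of all counts, a mean of 7.33% ± 0.11 (SD, n = 3). In Foxp3ΔJag1 nodes they took 6.99%, 7.31% and 7.45%, a mean of 7.25% ± 0.23 (SD, n = 3). The node groups overlapped. In Foxp3Ctrl tumours the share was 4.501%, 4.79% and 4.23%, a mean of 4.51% ± 0.28 (SD, n = 3), and every tumour lay below every node.

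**Figure D1:**
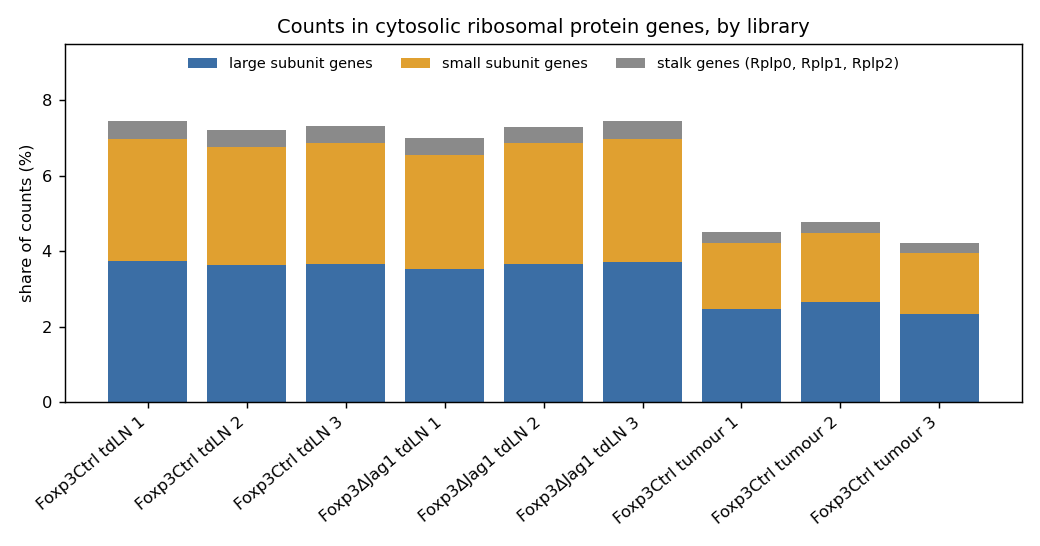
Share of all counts (%, vertical axis from 0) falling in cytosolic ribosomal protein genes in each of the 9 libraries, one bar per library, stacked by large subunit, small subunit and stalk. The 6 nodes lie between 6.99% and 7.45% and the 3 tumours between 4.23% and 4.79%.

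Single genes varied little among the nodes. Of the 83, 80 had a mean above 10 CPM (counts scaled to a library total of 1000000) in Foxp3Ctrl nodes, and their median coefficient of variation over the 6 nodes was 4.17%. Only 4 of the 80 varied by more than 10%, namely Rpl26, Rps15a, Rps13 and Rpl22. Per kb of annotated exon, the highest levels in Foxp3Ctrl nodes included those of Rplp1, an acidic stalk protein, at 3017 CPM per kb, Rps15 at 1743, Rps3a1 at 1598 and Rplp0, the base of the stalk, at 1317. These ranks depend on the length used. Over the length of the principal transcript in place of all exons, Rps27 stood first and Rplp1 second.

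The lowest levels per kb were all those of paralogues. Rpl10l, a testis-expressed relative of Rpl10, had no count in any of the 9 libraries, which allows up to 0.0934 CPM (3 counts) in the library with the lowest total. Rpl3l, the striated-muscle relative of Rpl3, stood at 0.0775 CPM per kb and Rpl39l, the testis-enriched relative of Rpl39, at 0.569. Rpl7l1, a relative of Rpl7, stood at 27.1 CPM per kb and Rps27l, a p53-induced relative of Rps27, at 47.6. Rpl10l and Rpl3l did not pass the filter on low counts, so 81 of the 83 genes were tested in either comparison.

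The comparison of Foxp3ΔJag1 with Foxp3Ctrl nodes asked whether removing Jag1 from Foxp3-expressing cells changed the node. Jag1 itself had 22.00, 23.2 and 24.4 CPM in Foxp3Ctrl nodes and 27.8, 20.7 and 23.8 CPM in Foxp3ΔJag1 nodes. These overlapped (log2 fold change 0.03 ± 0.11 (SE), edgeR adjusted p = 0.984), and since Cre acts in 1 cell type of a whole node, the gene's level does not check the labels here.

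No ribosomal protein gene passed the test in this comparison. With edgeR's quasi-likelihood test at an adjusted p under 0.05, 0 of the 81 were called, against 0.038% of all 18440 genes tested (0.0325% higher and 0.00542% lower). A single one of the 81, Rpl21, had an unadjusted p under 0.05, against 581 of all 18440 genes, and DESeq2 and limma-voom also called 0. The median log2 fold change of the 81 genes was -0.04, beside 0.00 over all genes, with 65 of the 81 (80.2%) below 0, beside 51.2% of all genes, and a median SE of 0.08. Without the first Foxp3ΔJag1 node the median was -0.0037, beside -0.0039 over all genes. The difference in their summed share was smaller than the spread of the nodes, at -0.09 percentage points (exact permutation test, 2-sided p = 0.6, where 3 against 3 cannot go below 0.1). Without the first Foxp3ΔJag1 node, which had the lowest share, the difference was 0.04 points.

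The 5 genes with the smallest p among those lower in Foxp3ΔJag1 nodes were Rpl21, Rpl29, Rps26, Rpl38 and Rps7. Rpl21, a protein of the large subunit, had 1108, 1123 and 1158 CPM in Foxp3Ctrl nodes and 1041, 1019 and 1024 CPM in Foxp3ΔJag1 nodes. The 2 groups did not overlap, yet the difference did not pass (log2 fold change -0.16 ± 0.07 (SE), edgeR adjusted p = 0.953). Rpl29, another large-subunit protein, had 578, 579.9 and 572 CPM against 463, 519 and 566 CPM, again without overlap (log2 fold change -0.18 ± 0.09 (SE), edgeR adjusted p = 0.953). Rps26 had 596, 572 and 581 CPM against 489, 539 and 575 CPM, with an overlap at the third Foxp3ΔJag1 node. Rpl38, a large-subunit protein known for its part in the translation of Hox messages, had 257, 234 and 249 CPM against 221, 236 and 237 CPM, also overlapping.

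Among the genes with a value above 0, the smallest p belonged to Rpl11, Rpl18, Rps14, Rpl41 and Rpl39l. Rpl11, which with Rpl5 binds the p53 regulator Mdm2 when not in ribosomes, had 876, 913 and 897 CPM in Foxp3Ctrl and 937, 959 and 938 CPM in Foxp3ΔJag1 nodes (log2 fold change 0.05 ± 0.07 (SE), edgeR adjusted p = 0.953). Its groups did not overlap. The log2 fold changes of Rpl18, Rps14 and Rpl41 were 0.06 ± 0.08, 0.06 ± 0.08 and 0.07 ± 0.10 (SE), and that of Rpl39l, counted at under 1 CPM in every node, was 0.26 ± 0.45. In all, the node groups did not overlap for 3 lower genes (Rpl21, Rpl29 and Rps7) and 1 higher gene (Rpl11), against 3.18% of all genes lower and 4.11% higher. The summed level of 5 erythroid markers was 30.8 to 74.96 CPM in Foxp3Ctrl and 15.2 to 25.1 CPM in Foxp3ΔJag1 nodes, that of 7 epithelial markers 12.4, 34.6 and 124.5 CPM and 8.72, 7.51 and 10.7 CPM, and that of 6 adipocyte markers 73.8 to 271 and 64.9 to 294 CPM. The erythroid and epithelial sums did not overlap between the node groups. None of these markers was called, and their part in the values above was not tested.

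Tumours and nodes of the control mice differed far more. Between Foxp3Ctrl tumours and Foxp3Ctrl nodes, 69 of the 81 genes changed (edgeR quasi-likelihood test, adjusted p under 0.05), 66 of them lower in tumour and 3 higher. Of all 18566 genes tested, 73.2% changed, 37.6% lower and 35.6% higher. The median log2 fold change of the 81 genes was -0.58, beside -0.05 over all genes. The tumour values lay below all node values for 70 of the 81 and above them for 4, against 41.5% and 36.5% of all genes. In 71 of the 81 genes the tumour of each of the 3 mice was below the node of the same mouse. This count by mouse was not made over all genes, so it has no share to stand beside. The summed share differed by -2.83 percentage points (tumour minus node), so that nodes held 1.63 times the share of tumours. An exact permutation test gave a 2-sided p = 0.1, the smallest that 3 against 3 unpaired libraries can give. That test did not use the pairing of node and tumour by mouse.

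**Figure D2:**
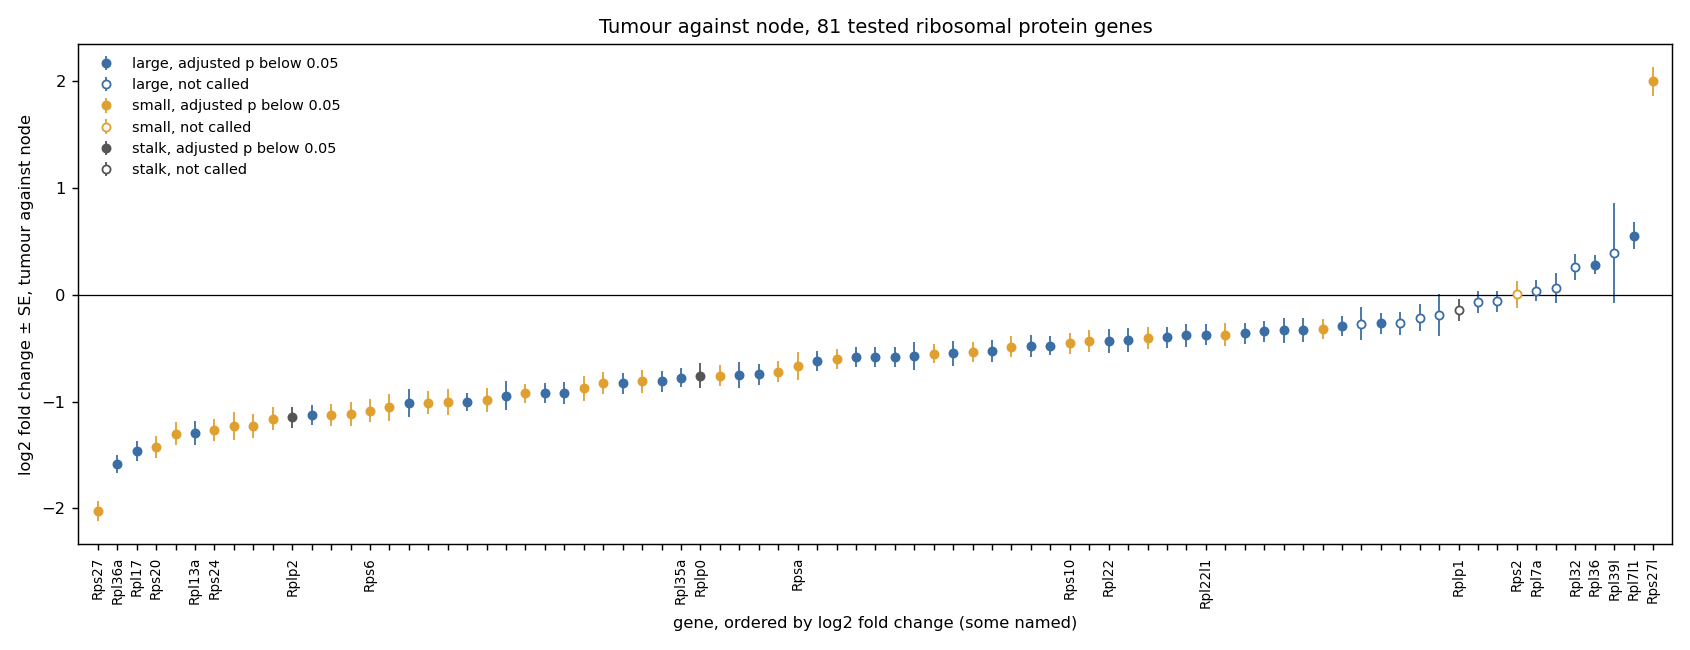
Log2 fold change of Foxp3Ctrl tumour against Foxp3Ctrl tdLN (vertical axis, with SE bars) for each of the 81 tested genes, ordered by value along the horizontal axis, where some are named, and coloured by subunit; filled points have an adjusted p below 0.05. The genes run from Rps27 at -2.03 to its paralogue Rps27l at 2.00, with 66 filled points below 0 and 3 above.

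Markers of cell types differed between the tissues. All 8 T cell markers and all 7 B cell markers were lower in tumour: the summed T cell markers stood at 1282 to 1623 CPM in nodes and 53.02 to 69.00 CPM in tumours, and the B cell markers at 3614 to 3912 and 4.59 to 7.35 CPM. All 7 melanoma markers were higher, at 10.8 to 36.5 CPM in nodes and 17648 to 23065 CPM in tumours, and so were all 7 proliferation genes, at 424 to 637 and 1169 to 1274 CPM. Of the other lists, neutrophil markers summed to 66.9 to 139 CPM in nodes and 2.90 to 3.81 CPM in tumours (all 5 tested lower), endothelial markers to 557 to 712 and 108 to 167 CPM (4 of 5 lower), fibroblast markers to 487 to 1048 and 1531 to 4446 CPM (4 of 6 higher, 2 lower), macrophage markers to 430.4 to 815 and 478 to 699 CPM (1 of 6 higher, 1 lower), epithelial markers to 12.4 to 125 and 0.529 to 26.4 CPM (1 of 7 lower), and skeletal muscle markers to 10.8 to 19.3 and 4.10 to 249 CPM (1 of 4 tested higher). Adipocyte and erythroid markers had no call, at 73.8 to 271 and 78.6 to 363 CPM and at 30.8 to 74.96 and 26.96 to 90.5 CPM. No marker of these 12 lists was at 0 over a whole group. Their part in the ribosomal protein result was not tested, and in whole tissue fewer cells of a type and less RNA per cell cannot be told apart.

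The median change was larger among small-subunit than among large-subunit genes. Of 32 small-subunit genes tested, 30 were lower and 1 higher, with a median log2 fold change of -0.85. Of 46 large-subunit genes, 34 were lower and 2 higher, with a median of -0.45. As shares of all counts, the small-subunit genes went from 3.20% ± 0.06 in nodes to 1.73% ± 0.11 in tumours and the large-subunit genes from 3.68% ± 0.05 to 2.48% ± 0.15 (SD, n = 3 each). The difference between the subunits was not tested.

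The largest fall was that of Rps27, a small-subunit protein with a zinc finger (chr3:90212522-90213651, minus strand, GRCm38). It had 1186, 1144 and 1337 CPM in the 3 nodes and 301, 285 and 277 CPM in the 3 tumours, far from any overlap (log2 fold change -2.03 ± 0.10 (SE), edgeR adjusted p = 1.22e-06). Rps27rt, a retrogene of Rps27 on chromosome 9 that is annotated as protein-coding and lies outside the name rule, was at 10.1, 10.4 and 13.1 CPM and 2.66, 2.88 and 2.30 CPM (log2 fold change -2.03 ± 0.19 (SE), edgeR adjusted p = 3.44e-05). The counts of this pair may share reads, so the smaller value is uncertain.

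Next came Rpl36a of the large subunit (chrX:134585654-134588062), at 399, 363 and 417 CPM in nodes and 130.1, 124 and 123 CPM in tumours (log2 fold change -1.59 ± 0.09 (SE), edgeR adjusted p = 2.25e-06). Its close paralogue Rpl36al, also outside the name rule, did not pass, with 188, 188 and 183 CPM in nodes and 207, 216 and 201 CPM in tumours (log2 fold change 0.21 ± 0.09 (SE), edgeR adjusted p = 0.0632). Whether the 2 differed in their change was not tested.

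Rpl17, which lines the exit tunnel of the large subunit, fell from 1261, 1143 and 1251 CPM in nodes to 433, 425 and 415 CPM in tumours (log2 fold change -1.46 ± 0.09 (SE), edgeR adjusted p = 5.04e-06). Rps20, in the head of the small subunit, fell from 902, 786 and 858 to 320.5, 297 and 294 CPM (log2 fold change -1.43 ± 0.10 (SE), edgeR adjusted p = 7.65e-06). For both, the highest tumour was below the lowest node by a wide margin. Rpl13a (chr7:45125558-45128761) changed by -1.30 ± 0.11 (log2, SE). It is also known from the GAIT complex that silences inflammatory messages. Rps24 and Rps19, both mutated in Diamond-Blackfan anaemia in humans, changed by -1.26 ± 0.10 and -1.23 ± 0.11, and Rps16 and Rps9 by -1.23 ± 0.13 and -1.16 ± 0.11. Among these 5, the adjusted p lay between 1.73e-05 (Rps24) and 6.92e-05 (Rps16), and none had overlapping groups. In total 20 of the 66 lower genes were lower by at least 1 on the log2 scale, which is 24.7% of the 81 tested, beside 26.3% of all genes.

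Of the 3 stalk proteins, which recruit the elongation factors, 2 were lower in tumour and 1 did not pass. Rplp2 had 900.4, 814 and 896 CPM in nodes and 393, 384 and 353 CPM in tumours (log2 fold change -1.15 ± 0.10 (SE), edgeR adjusted p = 2.16e-05). Rplp0 went from 2201, 2273 and 2079 to 1247, 1318 and 1163 CPM (log2 fold change -0.76 ± 0.12 (SE), edgeR adjusted p = 0.000533). Rplp1, the partner of Rplp2 in the stalk, had 1517, 1427 and 1574 CPM in nodes and 1318, 1389 and 1225 CPM in tumours and did not pass (log2 fold change -0.14 ± 0.10 (SE), edgeR adjusted p = 0.239), although its groups did not overlap. Whether Rplp1 and Rplp2 differed in their change was not tested. Rpsa, a small-subunit protein also described as a laminin receptor, went from 2012, 2115 and 1874 to 1244, 1331 and 1062 CPM (log2 fold change -0.67 ± 0.13 (SE), edgeR adjusted p = 0.00235).

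Of the 12 genes that did not pass, 11 were expressed at over 100 CPM: Rpl41, Rpl6, Rpl8, Rpl26, Rplp1, Rpl24, Rpl29, Rps2, Rpl7a, Rpl27 and Rpl32. The 12th, Rpl39l, was counted at 1.0 CPM or less in each library. Rpl7a lay at 895, 895 and 894 CPM in nodes and 889, 938 and 826 CPM in tumours, and Rps2 at 1263, 1267 and 1188 and 1227, 1319.8 and 1047 CPM. Rpl32 had 988, 973 and 909 CPM in nodes and 1062, 1222 and 1025 CPM in tumours, every tumour above every node (log2 fold change 0.26 ± 0.12 (SE), edgeR adjusted p = 0.0828). With the mouse as a block, 3 of the 12 passed: Rpl32 as higher (edgeR adjusted p = 0.0432), and Rpl41 (adjusted p = 0.0362) and Rpl6 (adjusted p = 0.0303) as lower.

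Only 3 genes rose, and 2 of them are paralogues. Rps27l had 42.9, 39.96 and 33.5 CPM in nodes and 150.1, 160.5 and 139 CPM in tumours (log2 fold change 2.00 ± 0.14 (SE), edgeR adjusted p = 6.83e-06), a 4.0-fold rise. Rpl7l1, whose protein acts in the assembly of the large subunit, had 100.4, 98.8 and 84.7 CPM in nodes and 127, 147 and 128 CPM in tumours (log2 fold change 0.55 ± 0.12 (SE), edgeR adjusted p = 0.00409). Rpl36, a large-subunit protein, had 442, 413 and 456 CPM in nodes and 513, 526 and 493 CPM in tumours (log2 fold change 0.28 ± 0.09 (SE), edgeR adjusted p = 0.0197). Its call was lost without the first control node (adjusted p = 0.0595) and without the second (adjusted p = 0.0575).

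The ratio of a paralogue's counts to its partner's within a library, not scaled for length, does not depend on the normalization. Counts of Rps27l were 3.62, 3.49 and 2.51% of those of Rps27 in Foxp3Ctrl nodes, 3.22, 3.09 and 2.97% in Foxp3ΔJag1 nodes and 49.9, 56.2 and 50.04% in tumours. The mean log2 ratio was 4.04 higher in tumour than in Foxp3Ctrl nodes (exact permutation test, 2-sided p = 0.1, adjusted p = 0.4 over 8 tests, n = 3 and 3), with no overlap. Counts of Rpl7l1 were 9.21, 10.2 and 8.15% of those of Rpl7 in Foxp3Ctrl nodes and 18.7, 22.6 and 19.4% in tumours, a log2 difference of 1.14 with the same exact p = 0.1. These tests took the libraries as unpaired, and so cannot bring either below 0.1.

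Rpl22 and Rpl22l1, a pair known from T cell development in which Rpl22 represses its paralogue, kept closer to each other. Rpl22 had 427, 324 and 423 CPM in nodes and 289, 275 and 272 CPM in tumours (log2 fold change -0.43 ± 0.11 (SE), edgeR adjusted p = 0.00914). Rpl22l1 had 111, 89.9 and 109.9 CPM and 75.4, 72.5 and 82.6 CPM (log2 fold change -0.37 ± 0.10 (SE), edgeR adjusted p = 0.00971). Its counts were 26.1, 27.7 and 25.97% of those of Rpl22 in nodes and 26.1, 26.4 and 30.4% in tumours, overlapping ranges (exact permutation test, p = 0.6). Without the second tumour the call of Rpl22l1 was lost (adjusted p = 0.0528). Rpl39l reached at most 0.334% of the counts of Rpl39, in the first tumour, and Rpl3l at most 0.118% of those of Rpl3, in the third. The summed skeletal muscle markers stood at 4.23, 4.10 and 249 CPM in the 3 tumours, highest in the same tumour, and their part in the Rpl3l value was not tested.

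Between the node groups the ratios of the 4 tested pairs differed by -0.03 (Rps27l), 0.00 (Rpl7l1), 0.03 (Rpl22l1) and 0.23 (Rpl39l) on the log2 scale, with exact permutation p-values between 0.6 and 1.0. Rps27l itself had 35.2, 37.4 and 38.01 CPM in Foxp3ΔJag1 nodes (log2 fold change -0.10 ± 0.11 (SE), edgeR adjusted p = 0.953).

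The genes are spread over 19 chromosomes, and chromosome 7 holds the most. All 14 tested genes on chromosome 7 were lower in tumour, with a median log2 fold change of -1.12. The other 1441 genes tested on chromosome 7 also had a low median, -0.50, and 50.2% of them were lower. On the remaining chromosomes 52 of 67 ribosomal protein genes were lower and 3 higher, with a median of -0.52, beside 0.00 and 36.3% for the other 17044 genes. The median of the ribosomal protein genes was below that of the other genes on each of the 19 chromosomes, by 0.05 (chromosomes 6 and 16) to 1.02 (chromosome 18). This grouping was chosen after the values were seen and carries no test.

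**Figure D3:**
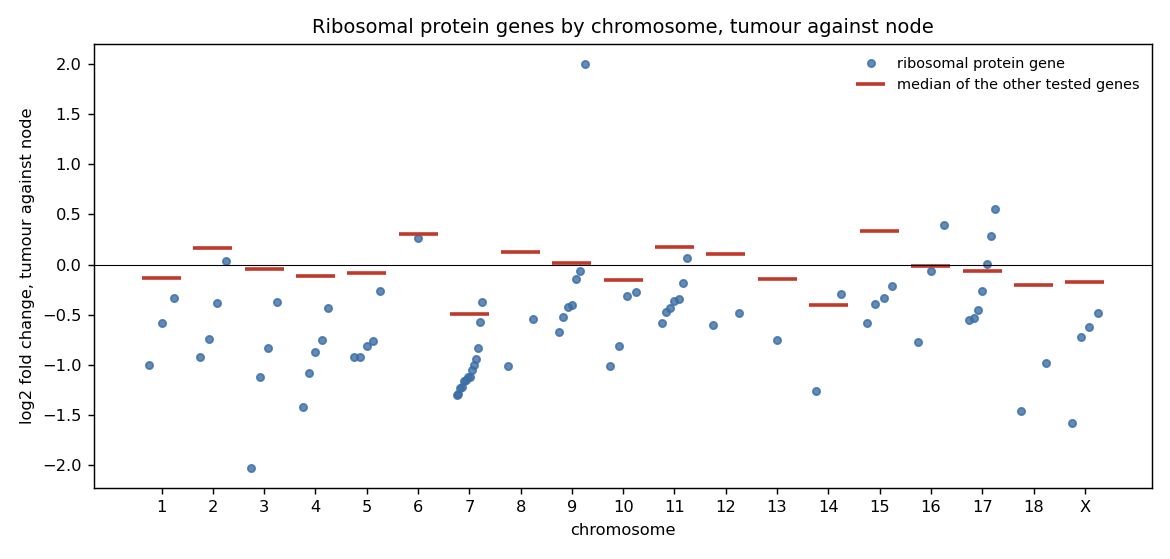
Log2 fold change of Foxp3Ctrl tumour against Foxp3Ctrl tdLN (vertical axis) for the 81 tested genes, one point per gene, by chromosome (horizontal axis), with a bar at the median of the other genes tested on the same chromosome. The 14 genes on chromosome 7 all lie below 0, and the bar there, at -0.50, is the lowest.

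Across the 81 genes, which share the same libraries, the log2 fold change had a Spearman correlation of -0.36 with the mean CPM in Foxp3Ctrl nodes, whose error enters both, 0.00 with coding length, and 0.11 with the share of 100-letter stretches of the principal transcript that also occur in another gene's annotated transcripts.

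Lists of other ribosome-related genes were counted in the same comparison, and none was tested against the ribosomal protein genes. The lists were written with earlier results of these data known, and their counts stand beside the 35.6% higher and 37.6% lower of all genes. Of 78 mitochondrial ribosomal protein genes, whose products translate inside mitochondria, 60 were higher in tumour and 1 lower, with a median log2 fold change of 0.67. Among them were Mrpl13 (log2 1.95 ± 0.09, adjusted p = 1.11e-06) and Mrps25 (2.19 ± 0.12, adjusted p = 2.07e-06, both edgeR). Of 37 ribosome biogenesis factors, 22 were higher and 5 lower, including Nhp2, a protein of the pseudouridylating particles, at 1.51 ± 0.12, adjusted p = 1.29e-05 (edgeR), and Bysl, which acts in small-subunit assembly, at 0.93 ± 0.12, adjusted p = 0.000253 (edgeR). Of 11 genes of RNA polymerase I transcription, which makes ribosomal RNA, 6 were higher and 3 lower. The gene of its largest subunit, Polr1a, stood at 1.06 ± 0.12, adjusted p = 0.000119 (edgeR), and Rrn3, which brings the polymerase to the promoter, at 0.87 ± 0.10, adjusted p = 0.000138 (edgeR). The 3 lower genes were Taf1c at -1.13 ± 0.15, Polr1e at -0.62 ± 0.18 and Ubtf at -0.37 ± 0.11.

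A list of 17 genes taken as having TOP messages, most but not all of them translation factors, was split, 5 higher and 5 lower. Its median log2 fold change was -0.08, and whether these messages carry the tract was not checked here. The higher genes were Eef1d and Eif3l, which are translation factors, and Btf3, Hnrnpa1 and Npm1, which are not. The lower genes were Eef1a1, Eef2, Eif3f, Eif3k and Tpt1. Tpt1, an abundant TOP message, changed by -1.06 ± 0.10, adjusted p = 3.68e-05 (edgeR), and Eif3f, a subunit of an initiation factor, by -1.004 ± 0.12, adjusted p = 0.000133 (edgeR). Of 15 genes of the mTORC1 pathway and TOP regulation, 9 were higher and 3 lower, among them Deptor, an inhibitor of mTOR kinase, at 2.05 ± 0.16, adjusted p = 1.22e-05 (edgeR), and the RNA-binding protein gene Larp4 at 1.12 ± 0.10, adjusted p = 3.20e-05 (edgeR). The Myc network list had 4 of 10 higher and 5 lower. Among the lower were Mycl at -4.26 ± 0.19, adjusted p = 7.86e-07 and Mga at -1.24 ± 0.10, adjusted p = 1.62e-05 (edgeR). The higher ones were Max, Mxd3, Mxi1 and Mnt, and Myc itself was not called (0.38 ± 0.22, edgeR adjusted p = 0.161). The p53 response list had 4 of 12 higher and 5 lower, including Btg2 at -4.49 ± 0.21, adjusted p = 1.20e-06 and Phlda3 at 2.94 ± 0.17, adjusted p = 2.77e-06 (edgeR). Rps27l, itself a p53 target, is not in that list. Between the node groups none of the genes in the 8 ribosome-related lists was called.

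**Figure D4:**
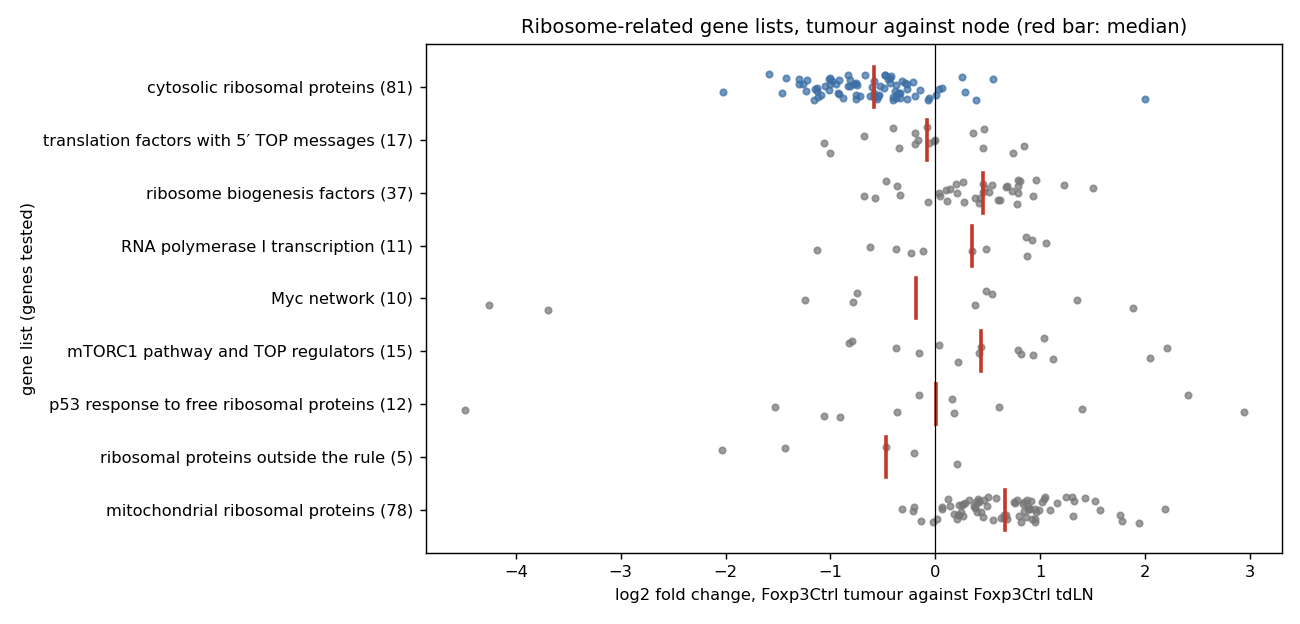
Log2 fold change of Foxp3Ctrl tumour against Foxp3Ctrl tdLN (horizontal axis) for the genes tested in each ribosome-related list (rows), one point per gene, with a red bar at the median; vertical scatter within a row has no meaning. The cytosolic ribosomal proteins have a median of -0.58 and the mitochondrial ribosomal proteins one of 0.67.

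Ribosomal proteins whose genes fall outside the name rule were counted too. Fau, which encodes Rps30 fused to a ubiquitin-like protein, had 972, 1014 and 909 CPM in nodes and 342, 382 and 306 CPM in tumours (log2 fold change -1.44 ± 0.13 (SE), edgeR adjusted p = 2.92e-05). Rack1, a signalling scaffold on the small subunit, had 1388, 1292 and 1282 CPM and 1049.8, 1165 and 1091 CPM, tumours below nodes without overlap, and did not pass (log2 fold change -0.21 ± 0.11 (SE), edgeR adjusted p = 0.117).

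Of the 4 genes above 10 CPM that varied by more than 10% among nodes, 3 have near-identical pseudogene copies that varied too. A search of the coding sequences against annotated pseudogene transcripts (GENCODE M21, at least 90% identity over at least 50% of the coding sequence) found 845 copies of 78 of the 83 genes, 746 of them with a count in some library. Of these, 5 copies reached at least 5 CPM in 1 node and at least 3 times the lowest node, a rule set after the values were seen. They are copies of Rpl26, Rps13, Rps15a (2 copies) and Rps7. Stretches of 3 of the genes and of their copies, from the annotated transcripts, show how little sets the pairs apart; capitals mark the letters that differ.
Rpl26: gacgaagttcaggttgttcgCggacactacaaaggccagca
Gm15772: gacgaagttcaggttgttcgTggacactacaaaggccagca
Rps13: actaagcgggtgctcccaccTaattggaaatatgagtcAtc
Rps13-ps1: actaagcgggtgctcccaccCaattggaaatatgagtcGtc
Rps7: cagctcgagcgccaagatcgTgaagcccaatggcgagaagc
Gm6472: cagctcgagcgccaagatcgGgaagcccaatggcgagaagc

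In GRCm38 the Rpl26 stretch spans chr11:68902431-68903207 (plus strand, with an intron between) and that of Gm15772 chr5:3236587-3236627 (plus strand). The Rps13 stretch spans chr7:116331575-116332410 (minus strand, with an intron between) and that of Rps13-ps1 chr8:87048110-87048150 (plus strand). The Rps7 stretch lies at chr12:28635609-28635649 (minus strand) and that of Gm6472 at chrX:152910075-152910115 (minus strand). Over the whole coding sequence, Gm15772 differed from Rpl26 at 2 of 435 letters, Rps13-ps1 from Rps13 at 2 of 453 and Gm6472 from Rps7 at 3 of 582.

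Gm15772 was either nearly absent or abundant. It had 2.89, 2.58 and 146 CPM in the 3 Foxp3Ctrl nodes and 2.86, 135 and 137 CPM in the 3 Foxp3ΔJag1 nodes. Rpl26 had 644, 553 and 389 CPM and 541, 353 and 371 CPM in the same nodes, so the 3 nodes with a high copy were the 3 with the lowest Rpl26. Summed, gene and copy came to 647, 556 and 535 CPM in Foxp3Ctrl and 544, 488 and 508 CPM in Foxp3ΔJag1 nodes, and the coefficient of variation over the 6 nodes was 10.1% for the sum and 25.3% for Rpl26 alone. In tumours Gm15772 had 1.65, 1.98 and 10.5 CPM, highest in the tumour of the mouse whose node was high, while Rpl26 had 465, 445 and 438 CPM.

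Rps13-ps1 split the nodes differently. It had 0.0551, 26.2 and 33.3 CPM in Foxp3Ctrl nodes and 27.5, 30.2 and 0.0898 CPM in Foxp3ΔJag1 nodes, against 699, 527 and 596 CPM and 492, 540.1 and 686 CPM of Rps13. The 2 nodes nearly without the copy had the highest Rps13. In tumours it had 0.0533, 1.42 and 1.43 CPM, lowest in the mouse whose node was lowest. Rps15a-ps7, which differs from Rps15a at 4 of 390 aligned letters besides 1 gap, divided the nodes in the same way, with 1.05, 19.2 and 22.8 CPM in Foxp3Ctrl and 18.6, 20.6 and 1.35 CPM in Foxp3ΔJag1 nodes. Rps15a itself had 859, 622 and 735 CPM and 614, 667 and 833 CPM, again highest in the 2 nodes low in the copy. For Rps13 and Rps15a the counts of the varying copies alone (1 of 5 and 2 of 11 copies found) were at most 5.60% of the gene's. The coefficient of variation of gene and varying copies summed was 12.1% and 12.9%, beside 14.6% and 14.7% for the genes alone.

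Gm6472, annotated as a transcribed processed pseudogene at chrX:152909505-152910155, was the copy that separated the genotypes. It had 5.01, 5.46 and 6.20 CPM in Foxp3Ctrl nodes, 49.9, 50.3 and 52.6 CPM in Foxp3ΔJag1 nodes and 3.17, 3.83 and 3.30 CPM in Foxp3Ctrl tumours. It was 1 of the 7 genes called between the node groups (log2 fold change 3.17 ± 0.10 (SE), edgeR adjusted p = 4.96e-06). Rps7, a small-subunit protein, had 1248, 1206 and 1284 CPM in Foxp3Ctrl and 1135, 1185 and 1200.4 CPM in Foxp3ΔJag1 nodes, which did not overlap and did not pass (log2 fold change -0.11 ± 0.07 (SE), edgeR adjusted p = 0.953). Gene and copy summed came to 1253, 1212 and 1289.8 CPM in Foxp3Ctrl and 1185, 1235 and 1253 CPM in Foxp3ΔJag1 nodes, and these sums overlapped.

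**Figure D5:**
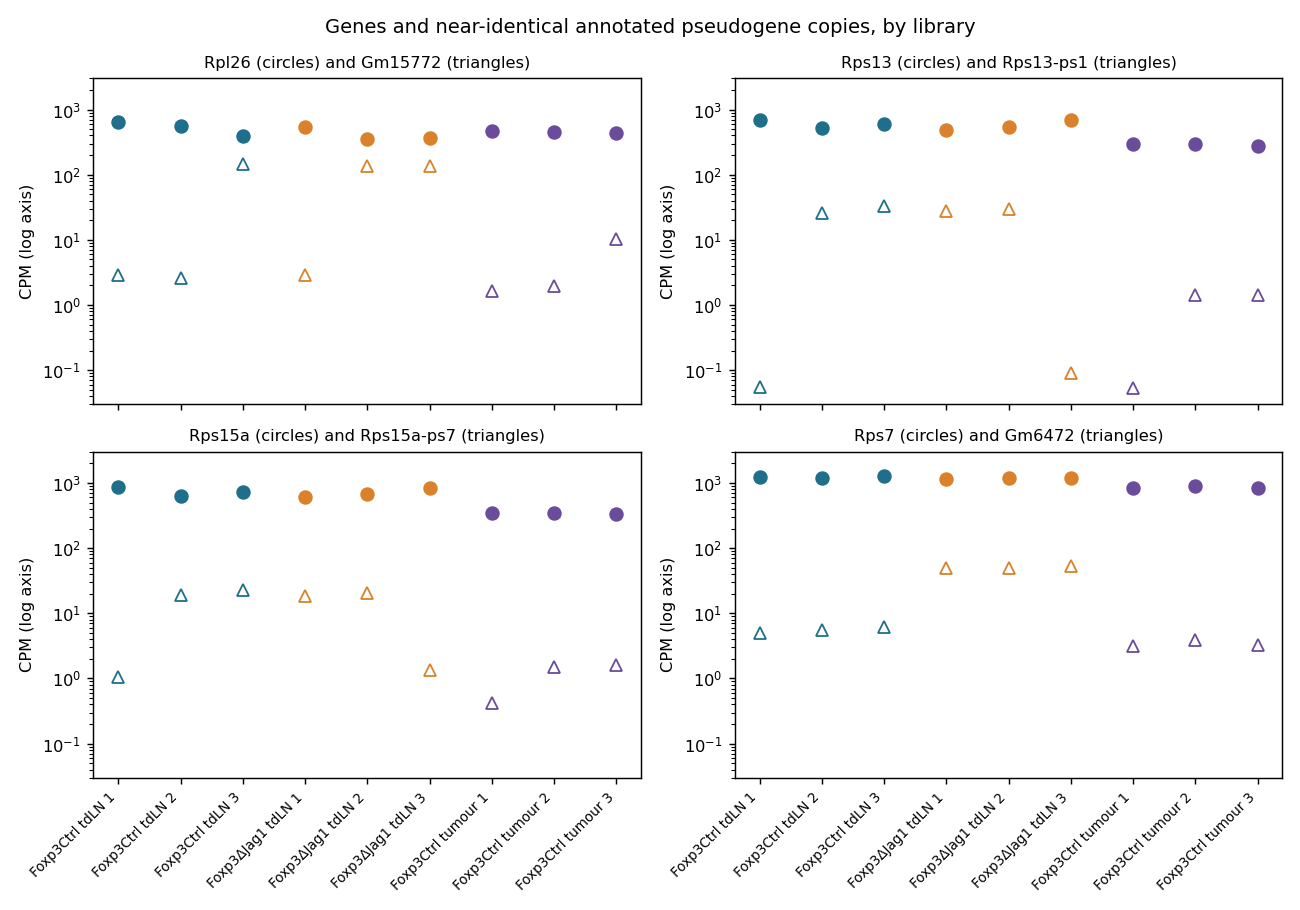
CPM on a log axis in each of the 9 libraries for Rpl26, Rps13, Rps15a and Rps7 (circles) and for 1 near-identical pseudogene copy of each (open triangles), coloured by group. Gm15772 is above 100 CPM in 3 nodes and under 3 CPM in the other 3, and Gm6472 is near 50 CPM in the 3 Foxp3ΔJag1 nodes and under 7 CPM in the Foxp3Ctrl libraries.

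How the authors' counting placed reads that fit both a gene and its copy was not tested, so the values of Rpl26, Rps13, Rps15a and Rps7, and those of their copies, are uncertain to that extent. The same may hold for other genes with counted copies. Copies of Rpl41 summed to 92.8, 63.7 and 73.6 CPM in Foxp3Ctrl nodes, 54.5, 64.9 and 73.9 CPM in Foxp3ΔJag1 nodes and 57.8, 51.2 and 56.8 CPM in tumours. Sums of each gene and its varying copies alone, without the other copies found, were also compared. In these sums every tumour lay below every control node for Rpl26, Rps13, Rps15a and Rps7. For Rpl26, whose own counts overlapped and did not pass, the sums were 647, 556 and 535 CPM in nodes and 466, 447 and 448 CPM in tumours, with no test of the sums. For Rps13 the sums were 699, 553 and 629 CPM in nodes and 298, 297 and 281 CPM in tumours, and for Rps15a 859.8, 646 and 763 and 348, 345 and 335 CPM. In all, 72 of the 83 genes shared at least 1 stretch of 100 letters of the principal transcript with another gene's annotated transcripts, and the median gene shared 36.8% of such stretches.

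The annotated gene starts show a TOP-like tract in part of the family. RefSeq promoter sequences (GRCm38.p6) were found for 63 of the 83 genes, over 250 letters before and 50 after each start. In 13 of the 63 (20.6%) the annotated start was a C followed by at least 4 C or T letters, beside 2.97% of 26962 other genes. An annotated start can lie some letters from the start in use, so a gene without a match here may still carry the tract. The windows below show 15 letters on either side of the start. They come from 5 genes with the tract at the annotated start, 2 genes without it there that also fell in tumour (Rpl36a and Rps16) and the 2 paralogues that rose. Capitals mark the C and T run from the start, and the last 4 have none there.
Rps27: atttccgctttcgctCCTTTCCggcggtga
Rplp2: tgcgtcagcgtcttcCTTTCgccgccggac
Rps6: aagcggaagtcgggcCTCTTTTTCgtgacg
Rpl35a: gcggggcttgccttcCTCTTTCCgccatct
Rps10: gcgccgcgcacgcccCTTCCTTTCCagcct
Rpl36a: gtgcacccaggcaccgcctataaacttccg
Rps16: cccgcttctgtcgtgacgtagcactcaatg
Rps27l: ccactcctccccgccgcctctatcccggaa
Rpl7l1: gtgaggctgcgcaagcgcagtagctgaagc

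These windows lie at chr3:90213634-90213663 (minus strand), chr7:141447636-141447665 (plus strand), chr4:86857353-86857382 (minus strand), chr16:33056467-33056496 (plus strand) (the second of 3 annotated starts), chr17:27635230-27635259 (minus strand), chrX:134585639-134585668 (plus strand), chr7:28350674-28350703 (plus strand), chr9:66946071-66946100 (plus strand), the first of 2 annotated starts, and chr17:46782642-46782671 (minus strand). The fall in tumour was found with and without a tract at the annotated start. All 13 genes with it there were lower, with a median log2 fold change of -0.57. Of the 48 tested genes with a promoter entry and no tract there, 38 were lower, 2 higher and 8 not called, with a median of -0.60. Such genes may still carry the tract, so these 2 sets do not separate genes that have it from genes that lack it. The difference between these 2 sets was not tested. The log2 fold changes in tumour were -2.03 ± 0.10 for Rps27, -1.15 ± 0.10 for Rplp2, -1.09 ± 0.11 for Rps6, the target of the S6 kinases, -0.78 ± 0.09 for Rpl35a and -0.45 ± 0.10 for Rps10, beside -1.59 ± 0.09 for Rpl36a and -1.23 ± 0.13 for Rps16 (SE). Other short words searched in the 300 letters were CCGGAAG, an ETS-family core, in 26 of the 63 genes (41.3%) against 9.86% of other genes, GGGCGG, the GC box, in 39 (61.9%) against 38.1%, and TATAA in 18 (28.6%) against 28.0%, each on both strands. AAGATGG, which overlaps the YY1 core, was in 10 (15.9%) against 7.26%, also on both strands, and its first 3 letters can overlap the end of the ETS core. The TOP-like word CTCTTTC was in 13 (20.6%) against 4.57%, searched on the sense strand alone. Matches describe letters in these windows.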

How the data were processed

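RNA of whole nodes and tumours was sequenced on an Illumina NovaSeq instrument, per the labels' protocols, which name both poly(A) selection and rRNA depletion without saying which was used. The authors deposited whole-number read counts per gene, not normalized, in 1 table for nodes and 1 for tumours. The submitters' processing notes name Trimmomatic 0.36, STAR 2.5.2b, Subread 1.5.2 with featureCounts, and the build GRCm38. Which annotation and which strand setting they used is not given in the sources used here. Of 49315 identifiers, 49056 matched GENCODE M21, the source of symbols, types and positions. The names of 3 other tumour columns fit no labelled sample, and these columns were left out.

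CPM were computed here from library totals, and counts were tested with edgeR 4.0.16 (R 4.3.3; quasi-likelihood test, TMM, filterByExpr, robust dispersion, Benjamini-Hochberg adjustment over all genes tested, FDR 0.05), each comparison fitted on its own 6 libraries. The 2 comparisons share the Foxp3Ctrl nodes. Standard errors come from the coefficient and its F statistic. Shares and paralogue ratios were compared by exact permutation of libraries, without pairing the control nodes and tumours by mouse. Copies were found with blastn 2.17.0. The edgeR test was also run on simulated counts with planted changes. In the setting of the node groups it called 65 of 98 planted 2-fold and 85 of 97 4-fold changes, and 20 of its 170 calls were false. In the setting of tumour against node it called 49 of 99 and 81 of 97, and 7 of 137 calls were false. Changes of 2-fold or less, and some of 4-fold, can thus be missed. The planted changes were placed at random among all genes tested, so sensitivity for the ribosomal protein genes alone was not measured. The members, lists and comparisons were chosen with earlier results of these data known. Genes were named by a rule on size, p and role: per comparison up to 10 called, non-overlapping genes in each direction, or the 5 smallest p where fewer than 5 were called, plus paralogue pairs, stalk proteins, Rpsa, Jag1, the 5 highest and lowest per kb and 2 genes per ribosome-related list. Some genes that this rule names are not reported here. Genes named for their copies, and those listed as not called, were picked after their values were seen.

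Replicates are taken as different mice from the codes in the library names; p-values measure the spread between these samples. All samples carry batch 1. Control node and tumour of 1 number share a mouse code, and their deviations from the group means correlated at -0.083, 0.126 and -0.004. Node numbers do not pair the 2 genotypes. Alternatives were other size factors, DESeq2 1.42.0, limma-voom 3.58.1, other filters and thresholds, a replicate block, a joint fit and leaving out libraries.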

Additional observations from a re-analysis of the deposited data

How the results depend on the processing

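The count of 0 ribosomal protein genes called between the node groups was the same in all 20 alternative settings, including leaving out each node (0 to 0). Between tumour and node the lower genes numbered 54 (minimum fold change of 1.2) to 68 and the higher genes 2 to 4, all within 1.5 times the 66 and 3 reported; leaving out 1 library gave 58 to 68 lower and 2 to 4 higher. With the replicate block, which pairs node and tumour of 1 mouse, 68 were lower and 4 higher, Rpl32 being added among the higher and Rpl41 and Rpl6 among the lower, and between the node groups the block gave 0. Library size alone, in place of TMM, moved the median log2 fold change of all genes in the tissue comparison from -0.05 to -0.11 and that of the ribosomal protein genes from -0.58 to -0.64.

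Leaving out 1 library moved the share difference between tumour and node from -2.97 to -2.69 percentage points, and that between the node groups from -0.18 to 0.043, the sign changing without the first Foxp3ΔJag1 node. The ratio differences of tumour against node ranged from 3.87 to 4.13 for Rps27l, 1.06 to 1.22 for Rpl7l1, 0.46 to 1.29 for Rpl39l and -0.019 to 0.092 for Rpl22l1, where the sign changed without the third tumour. Those between the node groups ranged from -0.20 to 0.064 for Rps27l, -0.079 to 0.081 for Rpl7l1, 0.0073 to 0.073 for Rpl22l1 and -0.24 to 0.51 for Rpl39l; the signs changed without the first (0.064) or second (0.038) Foxp3Ctrl node for Rps27l, without the third Foxp3Ctrl (-0.079) or first Foxp3ΔJag1 node (-0.019) for Rpl7l1, and without the first Foxp3ΔJag1 node (-0.24) for Rpl39l. Among single genes not called, Rpl41 ranged from -0.022 to 0.13 between the node groups, below 0 without the third Foxp3Ctrl node (-0.022) and without that node and the first Foxp3ΔJag1 node together (-0.063), the 2 nodes highest in adipocyte markers. Rpl39l ranged from -0.30 (without the first Foxp3ΔJag1 node) to 0.53, with -0.025 without the same 2 nodes, and in tumour against node from -0.13 (without the first tumour) to 0.73. Leaving out 1 node also moved the differences between the node groups of Rpl29 from -0.18 to -0.11 and of Rps26 from -0.15 to -0.082 (both without the first Foxp3ΔJag1 node), of Rpl18 from 0.060 to 0.013 (without the third Foxp3Ctrl node) or 0.12 (without the second), of Rps14 from 0.057 to 0.018 (without the first Foxp3Ctrl node) or 0.12 (without the second), and of Rpl11 from 0.055 to 0.033 (without the third) or 0.085 (without the second). None of these genes was called. The causes of these changes were not tested, beyond there being fewer samples.

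With 3 libraries a group, the smallest p of the unpaired permutation used here is 0.1. Rpl10l had no count and Rpl3l had few at this depth, and neither was tested. Rpl39l had few counts and was tested, with an SE of 0.45 between the node groups and 0.47 between tumour and node. Small differences in Rpl39l could thus be missed. The 95% Wilson interval of a library's ribosomal protein share was at most ± 0.00886 percentage points, which covers counting error only.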
